A study of Homo sapiens with 9 samples.

Results

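The coagulation and fibrinolysis genes studied here encode the fibrinogen chains, the clotting factors, the anticoagulants and the proteins that dissolve clots. They were listed by name from their known roles, 35 in all, with earlier results of these data known. Shares of members set beside those of all genes are therefore descriptions and no test of the list. Of the 35, 34 had a probe set assigned to that gene alone and were tested among 19775 genes. VTN (vitronectin) was not analysed here, because its 2 probe sets are also assigned to another gene. Where a gene had several probe sets, the brightest on average stood for it. All groups were HepG2, an established human hepatoma line grown without phenol red. The groups were 24 h of 100 nM GW7647, a PPARα agonist made by synthesis, 6 h of GW7647 at the same dose, and DMSO vehicle alone, with 3 Affymetrix arrays in each. All cells had been split the day before treatment. The same vehicle group served for both times and the labels do not state how long it was exposed, so time in culture and ligand exposure cannot be told apart. The labels do not say whether replicates were separate cultures, so the spread that the p-values rest on may be technical.

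Clotting starts when tissue factor (F3) binds factor VII, and runs through factor X and factor V to thrombin, which cuts fibrinogen into fibrin. Factors XII, XI, IX and VIII amplify the reaction, factor XIII cross-links the fibrin, and antithrombin, the protein C system and tissue factor pathway inhibitor hold it back. Plasmin, made from plasminogen by tissue and urokinase activators, dissolves the clot. Hepatocytes make most of these plasma proteins, the fibrinogens among the acute phase proteins, while thrombomodulin, the protein C receptor, tissue plasminogen activator and factor VIII come mainly from endothelium.

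The arrays held log2 RMA signals with medians between 5.61 and 5.68, and within a group r was 0.997 to 0.999 for each pair across genes, which are not independent replicates. All 7 measured markers of hepatocytes and hepatoma cells, among them ALB and AFP, lay above the median gene, whose signal was 6.74. Of these 7, TTR (transthyretin) fell at 24 h against vehicle (-0.55 ± 0.07, adjusted p = 0.00116) and 6 did not pass, and at 6 h 0 passed by limma, with 0 at an unadjusted p under 0.05. Of the markers of other cells, 1 of 7 endothelial, 2 of 5 platelet, 0 of 4 macrophage and 1 of 6 stellate markers lay above the median gene. None of these 22 markers passed in any comparison, where 8.17% of all genes passed at 24 h, 3.54% at 6 h and 13.8% at 24 h against 6 h. Most of the 22 lay below the median gene, where RMA signals compress differences, so their not passing says little about such cells. The list mean of the 7 hepatocyte and hepatoma markers, TTR among them, was 13.50 to 13.52 log2 units at 24 h, 13.54 to 13.56 at 6 h and 13.58 to 13.60 in vehicle, without overlap. That of the endothelial markers was 5.05 to 5.13 at 24 h, 5.12 to 5.15 at 6 h and 5.15 to 5.20 in vehicle. Those of the platelet, macrophage and stellate markers overlapped between groups. The part of these list means in the results was not tested. The 3′ minus 5′ signal of GAPDH, a sign of RNA integrity, was 0.018 to 0.022 at 24 h, 0.045 to 0.070 at 6 h and -0.0082 to 0.076 in vehicle. That of ACTB overlapped between groups, at 0.250 to 0.404 at 24 h, 0.273 to 0.302 at 6 h and 0.152 to 0.360 in vehicle. The part of RNA integrity in the differences between 24 h and 6 h was not tested.

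After 24 h of GW7647, 9 of the 34 members had lower transcript signals than in vehicle, 1 had a higher one and 24 did not pass, with "pass" meaning an adjusted p under 0.05 by limma over all 19775 genes. The 9 were the 3 fibrinogen chains FGA, FGB and FGG, the factors F5, F10, F11 and F13B, the protease inhibitor A2M and CPB2, which protects fibrin from plasmin, and F7 was the one that rose. The 10 calls covered 29.4% of the members, against 8.17% of all genes tested. Falls covered 26.5%, against 2.8%, and rises 2.94%, against 5.38%. At an unadjusted p under 0.05 there were 12 members (all genes 21.2%). Among genes above the median signal, 8 of 23 members (34.8%) fell, against 4.95% of 9887 genes. The median log2 change was -0.070 over the members and 0.0034 over all genes. In the cells as a whole, fewer cells making a transcript and less RNA per cell cannot be told apart.

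After 6 h, 2 members were higher than in vehicle (F3 and TFPI2), 3 were lower (FGA, CPB2 and SERPINF2) and 29 did not pass. The 5 calls made up 14.7% of members, against 3.54% of all genes, with falls in 8.82% against 1.91% and rises in 5.88% against 1.64%. At an unadjusted p under 0.05 there were 11 members (all genes 16.3%). The median log2 change was -0.027 over the members and 0.0039 over all genes. Few calls were kept when 1 array of either compared group was left out. Limma passed 0 members without vehicle replicate 1 or without any 1 of the 6 h arrays (8 to 10 at an unadjusted p under 0.05). It passed 1 without vehicle replicate 2 and 2 without vehicle replicate 3. Calls over all genes at 6 h dropped as well, from 701 to between 261 and 637 with 1 array left out. Between the 2 exposures, 10 members were lower and 3 higher at 24 h than at 6 h, and 21 did not pass. The 13 calls made up 38.2% of members, against 13.8% of all genes. The falls made up 29.4% of members against 4.57% of all genes, and the rises 8.82% against 9.23%. At an unadjusted p under 0.05 there were 17 members (all genes 25.9%). Both comparisons with vehicle use the same 3 vehicle arrays.

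Counting members whose 3 arrays lay entirely apart from the other 3, without a model, 11 were lower and 4 higher at 24 h than in vehicle, where 8.95% of all genes were lower and 14% higher. At 6 h against vehicle 10 were lower and 5 higher, where 10.3% of all genes were lower and 10.5% higher. At 24 h against 6 h 12 were lower and 4 higher, where 13.8% of all genes were lower and 19.2% higher.

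**Figure D1:**
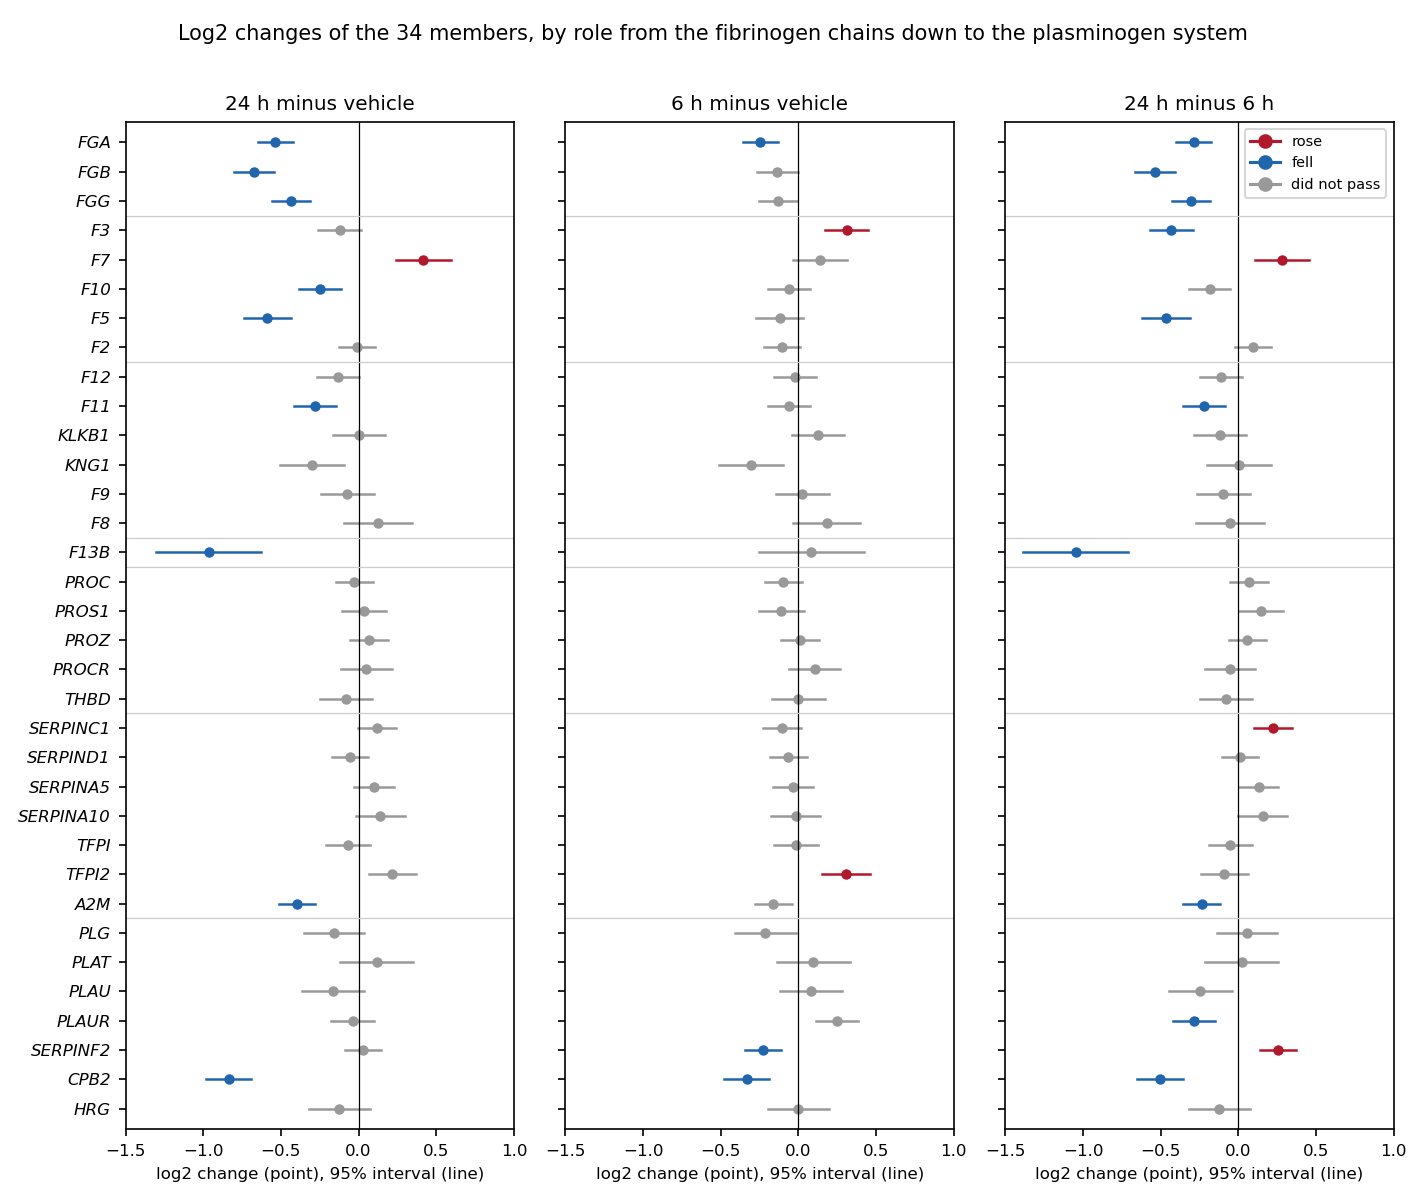
Log2 change of each of the 34 members at 24 h against vehicle, at 6 h against vehicle and at 24 h against 6 h, as points with 95% confidence intervals, with members ordered by role and thin lines between roles. Red marks rises, blue falls and grey changes that did not pass; 9 members are blue in the panel of 24 h against vehicle and 3 in that of 6 h against vehicle.

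The 3 fibrinogen chains, which assemble into the soluble precursor of fibrin, all fell at 24 h. FGA, the Aα chain, had signals of 12.67, 12.63 and 12.62 log2 units at 24 h, 12.91, 12.97 and 12.90 at 6 h, and 13.18, 13.20 and 13.14 in vehicle. No array of FGA overlapped with those of another group. FGA was 1.45-fold lower at 24 h than in vehicle (95% confidence interval 1.34 to 1.57), a log2 change of -0.54 ± 0.05 (SE, n = 3 arrays per group, adjusted p = 1.26e-04). At 6 h its change was -0.25 ± 0.05 (adjusted p = 0.0247). That call was lost when vehicle replicate 1 or 2 or any 6 h array was left out (adjusted p up to 0.102), while the change stayed between -0.27 and -0.23. With all its probe sets averaged FGA changed by -0.11 at 6 h (adjusted p = 0.374).

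FGB, the Bβ chain, had signals of 11.74, 11.73 and 11.78 log2 units at 24 h, 12.30, 12.31 and 12.25 at 6 h, and 12.40, 12.52 and 12.34 in vehicle. It was 1.59-fold lower at 24 h than in vehicle (95% confidence interval 1.46 to 1.74), with a log2 change of -0.67 ± 0.06 (adjusted p = 6.87e-05). Most of that difference separated 24 h from 6 h, at -0.54 ± 0.06 (adjusted p = 2.35e-04), and the change at 6 h, -0.14 ± 0.06, did not pass (adjusted p = 0.282). FGG, the γ chain, had signals of 13.21, 13.25 and 13.24 at 24 h, 13.54, 13.54 and 13.54 at 6 h, and 13.76, 13.64 and 13.61 in vehicle. Its fall of 1.35-fold at 24 h (95% confidence interval 1.24 to 1.47) was a log2 change of -0.44 ± 0.06 (adjusted p = 8.37e-04), and at 6 h the change of -0.13 ± 0.06 did not pass (adjusted p = 0.269). In each chain the groups were ordered without overlap, vehicle highest and 24 h lowest.

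The same order without overlap was held by 5 of the 34 members (14.7%), FGA, FGB, FGG, CPB2 and A2M, against 0.602% of all genes tested. The opposite order, 24 h highest and vehicle lowest, was held by 1 member, F7, against 0.829% of all genes. The fibrinogen genes are neighbours on chromosome 4, with 10.3 kb between FGB and FGA and 13.4 kb between FGA and FGG.

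The promoter windows of 5 of these 6 members, all but A2M, are shown because the groups of these genes were ordered without overlap. RefSeq windows on GRCh38.p14 run from 250 bases before the annotated gene start to 50 bases after it, and 29 of the 34 members matched 1, among them 8 of the 9 that fell at 24 h (all but A2M). Capitals mark TTC and GAA with any 3 bases between them, the palindromic core read by STAT factors such as STAT3, or TGACCT, which is AGGTCA, the single element read by nuclear receptors, on the other strand.
FGA, chr4:154590693-154590992, minus strand: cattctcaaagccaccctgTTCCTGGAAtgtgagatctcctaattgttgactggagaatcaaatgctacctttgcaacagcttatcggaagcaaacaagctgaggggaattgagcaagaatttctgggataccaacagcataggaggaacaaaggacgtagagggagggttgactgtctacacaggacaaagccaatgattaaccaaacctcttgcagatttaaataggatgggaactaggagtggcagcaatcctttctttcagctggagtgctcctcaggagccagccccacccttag
FGB, chr4:154562730-154563029, plus strand: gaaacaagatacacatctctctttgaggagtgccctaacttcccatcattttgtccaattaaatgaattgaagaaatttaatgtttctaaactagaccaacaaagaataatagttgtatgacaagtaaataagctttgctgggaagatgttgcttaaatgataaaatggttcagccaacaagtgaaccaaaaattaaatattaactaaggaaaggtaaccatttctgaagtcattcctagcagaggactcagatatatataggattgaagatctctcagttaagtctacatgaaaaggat
FGG, chr4:154612607-154612906, minus strand: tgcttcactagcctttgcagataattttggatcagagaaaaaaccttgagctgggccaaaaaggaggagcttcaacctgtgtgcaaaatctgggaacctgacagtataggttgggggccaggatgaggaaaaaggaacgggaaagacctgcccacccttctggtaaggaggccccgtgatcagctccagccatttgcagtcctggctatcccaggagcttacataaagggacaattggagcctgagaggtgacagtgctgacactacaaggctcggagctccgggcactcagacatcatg
CPB2, chr13:46104984-46105283, minus strand: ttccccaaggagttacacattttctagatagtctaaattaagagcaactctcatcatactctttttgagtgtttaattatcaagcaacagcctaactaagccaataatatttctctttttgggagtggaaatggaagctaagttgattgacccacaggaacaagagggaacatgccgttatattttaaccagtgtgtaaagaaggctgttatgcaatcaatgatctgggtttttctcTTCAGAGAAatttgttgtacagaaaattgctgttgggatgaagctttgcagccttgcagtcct
F7, chr13:113105541-113105840, plus strand: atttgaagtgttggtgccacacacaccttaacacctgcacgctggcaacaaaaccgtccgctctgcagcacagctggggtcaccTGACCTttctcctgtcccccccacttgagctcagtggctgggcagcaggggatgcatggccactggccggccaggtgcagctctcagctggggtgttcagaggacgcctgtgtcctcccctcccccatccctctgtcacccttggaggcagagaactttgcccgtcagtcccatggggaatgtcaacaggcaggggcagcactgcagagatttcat

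All letters were searched on both strands, and overlapping matches were counted once per window. The STAT core begins at position -231 from the FGA start and at -13 from the CPB2 start, and is not among the letters of the FGB, FGG and F7 windows. It occurs in 8 of the 29 member windows (27.6%) and in 7.88% of 27305 RefSeq windows of the same length, and of the 8 windows of members that fell at 24 h, 3 hold it: FGA, CPB2 and F10. The single element AGGTCA begins at -166 in the F7 window and is in 5 of the 29 windows (17.2%), those of F7, F2, KNG1, SERPIND1 and TFPI, and in 13.9% of all, and in 0 of the 8 windows of members that fell. The paired element read by PPAR with RXR (AGGTCA, any base, AGGTCA) is in 0 of the 29 windows, against 0.022% of all. An HNF1 site (GTTAAT, any base, ATTAA) is in 0, against 0.033%, and a C/EBP site (TTGC directly before GCAA) in 0, against 0.128%. At shares this low, 0 of 29 windows cannot tell the members from other genes. Sites that differ from these exact letters were not searched, so the 3 zeros do not show that such sites are absent. These matches describe letters only. STAT3, named here after its value was seen, had signals of 10.80 ± 0.12 log2 units at 24 h, 10.39 ± 0.01 at 6 h and 10.83 ± 0.02 in vehicle (SD, n = 3), with log2 changes of -0.02 ± 0.06 at 24 h (adjusted p = 0.877) and -0.44 ± 0.06 at 6 h (adjusted p = 0.00364).

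**Figure D2:**
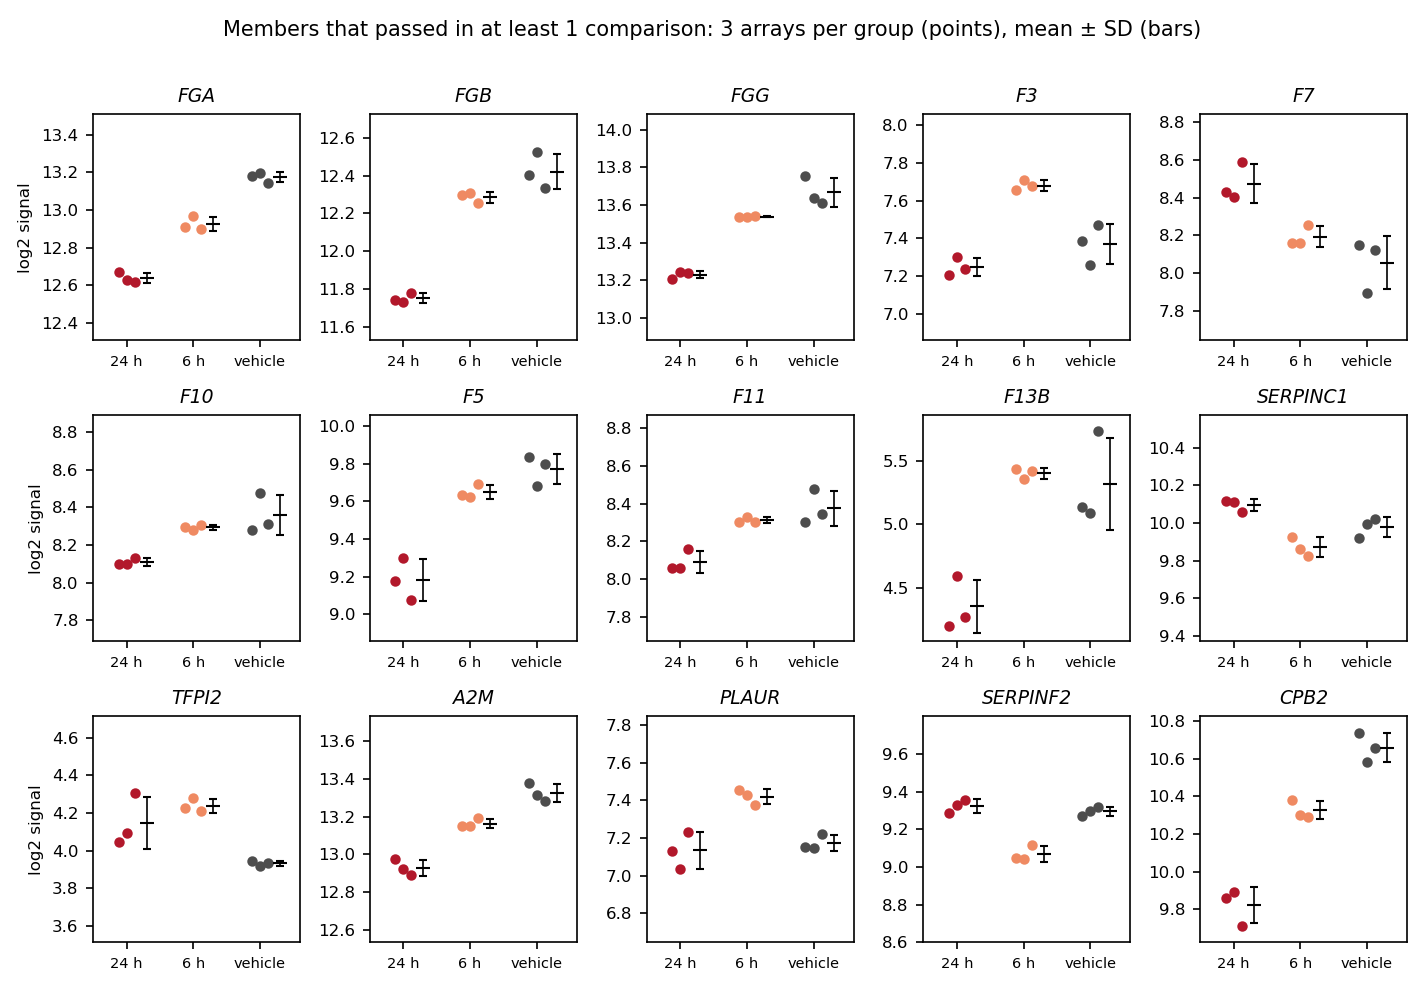
Log2 signals of the 15 members that passed in at least 1 comparison, with a point for each of 3 arrays at 24 h, at 6 h and in vehicle, and the mean ± SD as a bar beside them; each panel has its own vertical range. FGA, FGB, FGG, A2M and CPB2 step downward from vehicle over 6 h to 24 h without overlap, F7 steps upward, and F3, PLAUR and SERPINF2 stand apart at 6 h.

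Of the 5 members that start clotting and carry it to thrombin, 2 fell and 1 rose at 24 h, and 1 rose at 6 h. Over all genes, 2.8% fell and 5.38% rose at 24 h, and 1.64% rose at 6 h. F5, the cofactor of factor Xa, had signals of 9.17, 9.30 and 9.08 log2 units at 24 h, 9.64, 9.62 and 9.69 at 6 h, and 9.84, 9.68 and 9.80 in vehicle. All 24 h arrays of F5 lay below those of the other groups. It was lower at 24 h than in vehicle, by 1.35-fold to 1.67-fold (95% confidence interval), with a log2 change of -0.59 ± 0.07 (adjusted p = 5.32e-04). F10, the protease that forms thrombin together with factor V, had signals of 8.10, 8.10 and 8.13 at 24 h, 8.30, 8.28 and 8.31 at 6 h, and 8.28, 8.48 and 8.31 in vehicle. Its fall at 24 h was small, at -0.25 ± 0.06 (adjusted p = 0.0306), and the call was lost when any 24 h array, vehicle replicate 2 or 6 h replicate 1 or 3 was left out (adjusted p up to 0.0865), with changes of -0.29 to -0.19.

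F7, the protease that tissue factor activates, had signals of 8.43, 8.40 and 8.59 log2 units at 24 h, 8.16, 8.16 and 8.26 at 6 h, and 8.15, 7.89 and 8.12 in vehicle. It was 1.34-fold higher at 24 h than in vehicle, with a log2 change of 0.42 ± 0.08 (adjusted p = 0.00824). The other F7 probe set, whose signal of 5.98 lies below the median gene, had -0.044 ± 0.11 (adjusted p = 0.889), so the rise rests on 1 of 2 probe sets. On the probe set used, the change at 6 h, 0.14 ± 0.08, did not pass (adjusted p = 0.437). The nearest arrays there were 8.162 at 6 h and 8.148 in vehicle. From 6 h to 24 h it rose by 0.28 ± 0.08 (adjusted p = 0.0379). That call was lost when any 6 h or 24 h array was left out (adjusted p up to 0.132). F7 and F10 lie 2.11 kb apart on chromosome 13, and their signals changed in opposite directions at 24 h. PROZ, 9.12 kb beyond F10, had a change of 0.07 ± 0.05 (adjusted p = 0.548).

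F3, tissue factor, had signals of 7.21, 7.30 and 7.24 log2 units at 24 h, 7.65, 7.71 and 7.68 at 6 h, and 7.39, 7.26 and 7.47 in vehicle. The 6 h arrays lay above all others, while those of 24 h and vehicle overlapped. F3 was 1.24-fold higher at 6 h than in vehicle (log2 change 0.31 ± 0.06, adjusted p = 0.0239), a call lost when vehicle replicate 1 or 2 or any 6 h array was left out (adjusted p up to 0.110), with changes of 0.25 to 0.36. It was lower at 24 h than at 6 h by -0.43 ± 0.06 (adjusted p = 0.00119), and at 24 h it differed from vehicle by -0.12 ± 0.06 (adjusted p = 0.309). F2, prothrombin, passed in no comparison, with group means of 11.15 at 24 h, 11.06 at 6 h and 11.16 in vehicle.

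Of the 6 contact and intrinsic factors, 1 fell at 24 h (all genes 2.8%) and 0 passed at 6 h by limma (all genes 3.54%). At 6 h, 1 had an unadjusted p under 0.05. F11, which activates factor IX, had signals of 8.06, 8.06 and 8.16 log2 units at 24 h, 8.30, 8.33 and 8.30 at 6 h, and 8.30, 8.48 and 8.34 in vehicle. All its 24 h arrays lay below the others, and it was 1.22-fold lower than in vehicle (log2 change -0.28 ± 0.06, adjusted p = 0.0167). The call was lost when 24 h replicate 1 or 2 was left out (adjusted p up to 0.0616), with changes of -0.32 to -0.23 over all left-out arrays, and 3 further F11 probe sets of low signal (3.20 to 4.43) changed by -0.069 to 0.12. KNG1, high molecular weight kininogen, had signals of 6.89, 7.18 and 7.07 at 24 h, 7.18, 6.97 and 6.97 at 6 h, and 7.27, 7.50 and 7.28 in vehicle. Its log2 changes were -0.30 ± 0.09 at 24 h (adjusted p = 0.0771) and -0.31 ± 0.09 at 6 h (adjusted p = 0.117), neither of which passed, although the vehicle arrays lay above all others.

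The remaining members of the intrinsic pathway passed nowhere. F12, which starts contact activation, had means of 7.85 at 24 h, 7.96 at 6 h and 7.98 in vehicle. KLKB1, plasma prekallikrein, lies 7.72 kb from F11 on chromosome 4 and had means of 4.74 at 24 h, 4.86 at 6 h and 4.74 in vehicle. F9 and F8, the protease and the cofactor that together activate factor X, had means of 3.86 and 4.65 at 24 h, 3.95 and 4.70 at 6 h, and 3.93 and 4.52 in vehicle. KLKB1, F9 and F8 lay below the signal of the median gene, where RMA signals compress differences.

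F13B, the carrier subunit of factor XIII, fell at 24 h on a dim probe set, whose mean signal of 5.03 lies below the median gene. Its signals were 4.20, 4.59 and 4.27 log2 units at 24 h, 5.44, 5.36 and 5.42 at 6 h, and 5.13, 5.09 and 5.74 in vehicle. The 24 h arrays lay below all others, and vehicle replicate 3 stood above the rest of its group. The fall was 1.95-fold against vehicle (95% confidence interval 1.54 to 2.46), at -0.96 ± 0.15 (adjusted p = 0.00320), and 2.07-fold against 6 h (95% confidence interval 1.64 to 2.61), at -1.05 ± 0.15 (adjusted p = 0.00113). Without vehicle replicate 3 the change against vehicle was -0.76, where that of CPB2 was -0.84. At 6 h the change was 0.08 ± 0.15 (adjusted p = 0.842). The catalytic subunit of factor XIII, F13A1, is made mainly outside the liver and had means of 4.39 at 24 h, 4.31 at 6 h and 4.34 in vehicle.

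None of the 5 members of the protein C and protein Z system passed in any comparison by limma. The share of all genes that passed was 8.17% at 24 h, 3.54% at 6 h and 13.8% at 24 h against 6 h. At these shares, 0 of 5 cannot tell these members from other genes. At an unadjusted p under 0.05 there were 0 at 24 h and 0 at 6 h against vehicle and 1 at 24 h against 6 h. PROC, protein C, had signals of 10.33, 10.37 and 10.44 log2 units at 24 h, 10.33, 10.29 and 10.31 at 6 h, and 10.36, 10.46 and 10.40 in vehicle. The log2 change at 24 h was -0.03 ± 0.05, with a 95% confidence interval of -0.15 to 0.09. PROS1, its cofactor protein S, had means of 8.95 at 24 h, 8.81 at 6 h and 8.92 in vehicle. The protein C receptor PROCR and thrombomodulin THBD had changes of 0.05 ± 0.07 (adjusted p = 0.766) and -0.08 ± 0.08 (adjusted p = 0.614) at 24 h.

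Of the 7 inhibitors of coagulation proteases, 1 fell at 24 h (all genes 2.8%), and at 6 h 1 rose (all genes 1.64%). A2M, the broad protease inhibitor α2-macroglobulin, had signals of 12.97, 12.92 and 12.89 log2 units at 24 h, 13.15, 13.15 and 13.19 at 6 h, and 13.38, 13.31 and 13.28 in vehicle. It was 1.32-fold lower at 24 h than in vehicle (95% confidence interval 1.21 to 1.43), with a log2 change of -0.40 ± 0.05 (adjusted p = 0.00115), and did not pass at 6 h (-0.16 ± 0.05, adjusted p = 0.145). Another A2M probe set, with a signal of 5.72 below the median gene, changed by 0.14 ± 0.097 at 24 h (adjusted p = 0.513), and the mean of both probe sets did not pass (-0.13, adjusted p = 0.210). TFPI2, an inhibitor of plasmin and factor VIIa, had signals of 4.05, 4.09 and 4.31 at 24 h, 4.23, 4.28 and 4.21 at 6 h, and 3.95, 3.92 and 3.93 in vehicle. Its rise at 6 h, 0.31 ± 0.07 (adjusted p = 0.0368), is that of a dim probe set. The call was lost when any vehicle or 6 h array was left out (adjusted p up to 0.151), with changes of 0.29 to 0.32. Another TFPI2 probe set, with a signal of 3.13, changed by 0.15 ± 0.093 at 6 h (adjusted p = 0.522 over all probe sets). With both probe sets averaged the call was lost as well.

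SERPINC1, antithrombin, had signals of 10.12, 10.11 and 10.06 log2 units at 24 h, 9.93, 9.86 and 9.83 at 6 h, and 9.92, 9.99 and 10.02 in vehicle. It was higher at 24 h than at 6 h (0.22 ± 0.06, adjusted p = 0.0201), a call lost when 24 h replicate 1 or 2 or 6 h replicate 2 or 3 was left out (adjusted p up to 0.0811), with changes of 0.20 to 0.25, and differed from vehicle by 0.12 ± 0.06 at 24 h (adjusted p = 0.252). Heparin cofactor SERPIND1, the protein C inhibitor SERPINA5 and the protein Z dependent inhibitor SERPINA10 passed nowhere, with log2 changes at 24 h of -0.06, 0.10 and 0.14 and adjusted p of 0.609, 0.385 and 0.301. TFPI, which blocks tissue factor with factor VIIa, had means of 13.10 at 24 h, 13.15 at 6 h and 13.17 in vehicle and did not pass on the probe set used. Another of its 5 probe sets changed by -0.28 ± 0.069 at 24 h (adjusted p = 0.0370 over all probe sets).

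Of the 7 tested members that activate plasminogen or control it, 1 fell at 24 h (all genes 2.8%) and 2 fell at 6 h (all genes 1.91%). CPB2, the thrombin-activated carboxypeptidase that slows fibrin breakdown, had signals of 9.86, 9.89 and 9.71 log2 units at 24 h, 10.38, 10.30 and 10.29 at 6 h, and 10.74, 10.58 and 10.66 in vehicle. The 3 groups did not overlap. CPB2 was 1.79-fold lower at 24 h than in vehicle (95% confidence interval 1.61 to 1.98), with a log2 change of -0.84 ± 0.07 and the smallest adjusted p of the members, 2.92e-05. At 6 h it was 1.26-fold lower (-0.33 ± 0.07, adjusted p = 0.0202), a call lost when vehicle replicate 1 or 3 or any 6 h array was left out (adjusted p up to 0.0939), with changes of -0.37 to -0.29.

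SERPINF2, the α2-antiplasmin that inhibits plasmin, had signals of 9.29, 9.33 and 9.36 log2 units at 24 h, 9.05, 9.04 and 9.12 at 6 h, and 9.27, 9.30 and 9.32 in vehicle. The 6 h arrays lay below all others and those of 24 h and vehicle overlapped. Its fall at 6 h was -0.23 ± 0.05 (adjusted p = 0.0398), a call lost without any 1 of the 9 arrays (adjusted p up to 0.156) while the change stayed between -0.25 and -0.21, and it was higher at 24 h than at 6 h by 0.26 ± 0.05 (adjusted p = 0.00775). PLAUR, the urokinase receptor, had signals of 7.13, 7.04 and 7.23 at 24 h, 7.45, 7.43 and 7.38 at 6 h, and 7.15, 7.15 and 7.22 in vehicle. The 6 h arrays lay above all others; the change against vehicle, 0.25 ± 0.06, did not pass (adjusted p = 0.0555), and 24 h was lower than 6 h by -0.29 ± 0.06 (adjusted p = 0.0106). Its other probe sets gave -0.18 (adjusted p = 0.142) and 0.033 (adjusted p = 0.829) for 24 h against 6 h.

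Plasminogen itself and its activators passed in no comparison. PLG had means of 6.18 log2 units at 24 h, 6.12 at 6 h and 6.34 in vehicle, with a change of -0.16 ± 0.09 at 24 h (adjusted p = 0.343). The tissue activator PLAT changed by 0.12 ± 0.11 (adjusted p = 0.592) and urokinase PLAU by -0.16 ± 0.09 (adjusted p = 0.342). HRG, the histidine-rich glycoprotein that binds plasminogen and heparin, had -0.12 ± 0.09 (adjusted p = 0.477). All 4 lay below the signal of the median gene.

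**Figure D3:**
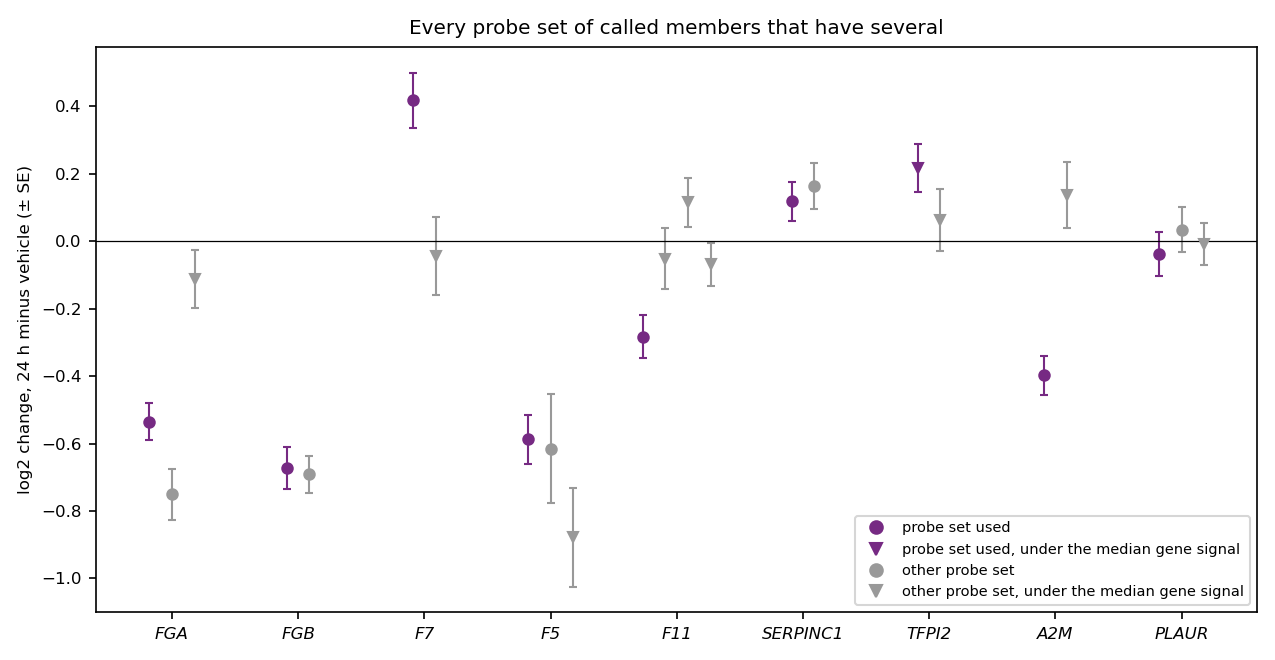
Log2 change at 24 h against vehicle, ± SE, for every probe set of the 9 called members with several probe sets; purple marks the probe set used, grey the others, and triangles signals below the median gene. Both FGB and all 3 F5 probe sets lie below 0, while the dimmer probe sets of F7, F11 and A2M lie near 0.

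Where a member had other probe sets, they repeated the fall for some genes and not for others. The other FGB probe set fell at 24 h by -0.69 ± 0.056 (adjusted p = 5.00e-05 over all probe sets). Of the other F5 probe sets, 1 fell by -0.88 ± 0.15 (adjusted p = 0.00540) and 1 changed by -0.61 ± 0.16 (adjusted p = 0.0514). Of the other FGA probe sets, 1 fell by -0.75 ± 0.075 (adjusted p = 2.33e-04) and 1, below the median gene, changed by -0.11 ± 0.086 (adjusted p = 0.549).

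Other genes of the pathway, 27 measured of 31 listed, gave 0 rises (all genes 5.38%) and 4 falls at 24 h (14.8%, all genes 2.8%). At 6 h there were 1 rise (3.70%, all genes 1.64%) and 0 falls (all genes 1.91%). An unadjusted p under 0.05 was held by 6 at 6 h (all genes 16.3%). SERPINE2, protease nexin 1, which inhibits thrombin and urokinase, fell at 24 h by -0.63 ± 0.05 (adjusted p = 2.89e-05), with means of 9.77 ± 0.03 at 24 h, 10.56 ± 0.02 at 6 h and 10.40 ± 0.02 in vehicle (SD, n = 3). FGL1, a liver protein related to fibrinogen, fell by -0.48 ± 0.06 (adjusted p = 4.84e-04), and CPN1, the plasma carboxypeptidase N, by -0.36 ± 0.06 (adjusted p = 0.00377). THBS1, the platelet and matrix protein thrombospondin, rose at 6 h by 0.56 ± 0.07 (adjusted p = 0.00241) and was below vehicle at 24 h by -0.29 ± 0.07 (adjusted p = 0.0368). ASGR2, an asialoglycoprotein receptor subunit, rose between 6 h and 24 h (0.22 ± 0.06, adjusted p = 0.0238).

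Of 13 measured genes of the vitamin K cycle, processing and secretion, 2 rose (15.4%) and 0 fell at 24 h against vehicle. Of all genes, 5.38% rose and 2.8% fell there. At 6 h 0 passed (all genes 3.54%), with 4 at an unadjusted p under 0.05 (all genes 16.3%). Between 6 h and 24 h, 6 rose (46.2%, all genes 9.23%) and 1 fell (7.69%, all genes 4.57%). GGCX, the carboxylase that modifies the vitamin K dependent factors, had means of 9.32 ± 0.02 at 24 h, 8.93 ± 0.03 at 6 h and 8.95 ± 0.15 in vehicle (SD, n = 3), a rise of 0.37 ± 0.07 at 24 h (adjusted p = 0.00882). The processing protease FURIN rose by 0.41 ± 0.07 (adjusted p = 0.00363). VKORC1 and VKORC1L1, which regenerate vitamin K, were higher at 24 h than at 6 h by 0.22 ± 0.06 (adjusted p = 0.0314) and 0.23 ± 0.06 (adjusted p = 0.0187), and so was TPST2, a tyrosine sulfotransferase (0.28 ± 0.07, adjusted p = 0.0150). ASPH, a hydroxylase of aspartate residues, was the one lower (-0.52 ± 0.10, adjusted p = 0.00491).

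Among 28 measured liver plasma proteins outside the pathway, 0 rose and 6 fell at 24 h (21.4%). Falls at 24 h covered 26.5% of the coagulation and fibrinolysis members and 2.8% of all genes. At 6 h 0 rose and 1 fell (3.57%, all genes 1.91%), haptoglobin HP (-0.40 ± 0.07, adjusted p = 0.00969). The 6 were ITIH3 (-0.74 ± 0.06), ceruloplasmin CP (-0.67 ± 0.08), transthyretin TTR (-0.55 ± 0.07) and the complement proteins C5 (-0.51 ± 0.06), C3 (-0.33 ± 0.05) and CFB (-0.30 ± 0.06). ALB, albumin, had means of 14.75 ± 0.05 at 24 h, 14.77 ± 0.01 at 6 h and 14.79 ± 0.08 in vehicle (SD, n = 3). No difference between both lists was tested.

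**Figure D4:**
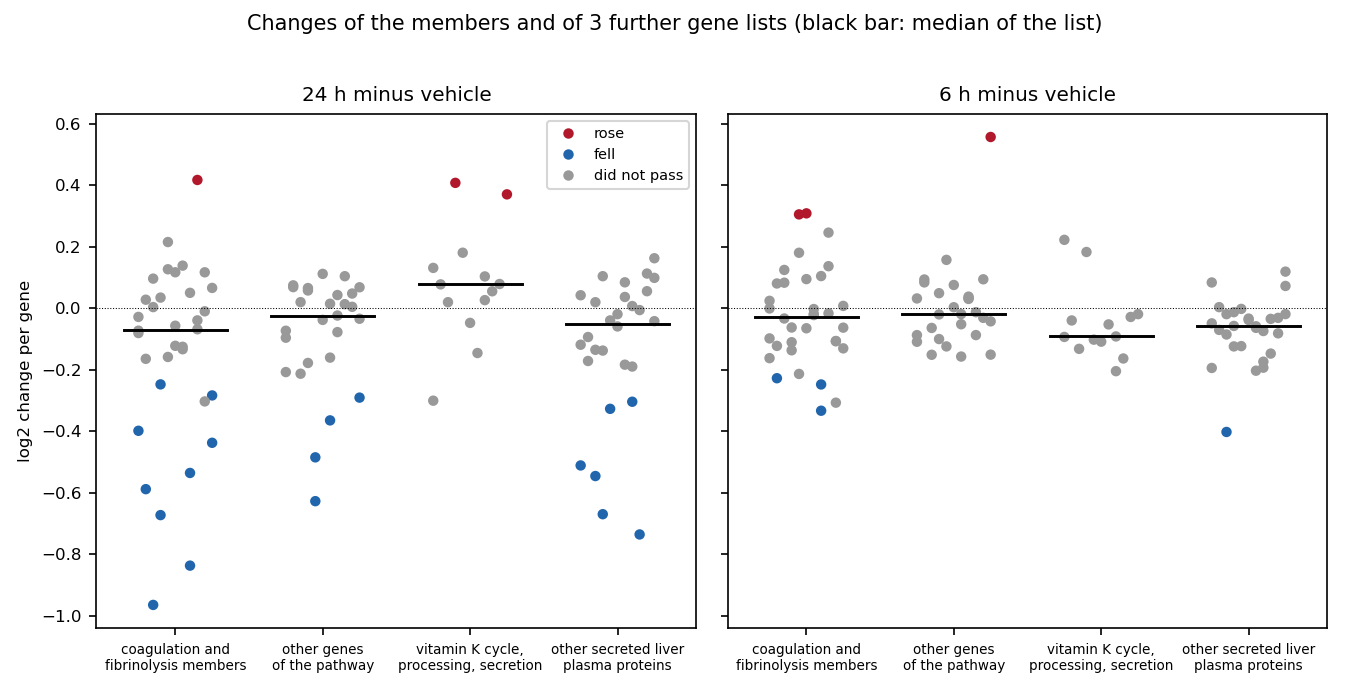
Log2 change of each gene at 24 h and at 6 h against vehicle, for the 34 members and for 27 other genes of the pathway, 13 genes of the vitamin K cycle, processing and secretion, and 28 other secreted liver plasma proteins; black bars are list medians. At 24 h the members' falls reach -0.96, and those of the other plasma proteins reach -0.74.

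Of 15 measured transcription factors known to act on liver genes, 2 rose and 5 fell at 6 h, 2 rose and 0 fell at 24 h, and 8 rose and 3 fell at 24 h against 6 h. Of all genes, 1.64% rose and 1.91% fell at 6 h, and 5.38% rose and 2.8% fell at 24 h. At 24 h against 6 h, 9.23% of all genes rose and 4.57% fell. PPARA, the receptor of GW7647, had means of 8.43 ± 0.04 log2 units at 24 h, 7.88 ± 0.03 at 6 h and 8.49 ± 0.10 in vehicle (SD, n = 3), and its partner RXRA 9.63 ± 0.06, 9.05 ± 0.09 and 9.69 ± 0.10. Both were below vehicle at 6 h, with 24 h changes of -0.06 ± 0.06 (adjusted p = 0.655) and -0.06 ± 0.07 (adjusted p = 0.696). FOXA2, which opens liver chromatin, rose at 24 h by 0.25 ± 0.06 (adjusted p = 0.0290) and fell at 6 h, with -0.34 ± 0.06 (adjusted p = 0.0132). CEBPD, a factor of the acute phase, rose at 24 h by 0.40 ± 0.07 (adjusted p = 0.00699), and its -0.23 ± 0.07 at 6 h did not pass (adjusted p = 0.139). The glucocorticoid receptor NR3C1 and EGR1 rose at 6 h, by 0.27 ± 0.06 (adjusted p = 0.0314) and 1.01 ± 0.11 (adjusted p = 8.79e-04). Their relation to the members was not tested.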

How the data were processed

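The deposited values were log2 probe set signals, 1 column per array, and per the submitters' processing notes they were made with RMA; the sources used here give no version. RMA corrects background, gives all arrays 1 distribution and summarises probes, and it compresses differences of dim probe sets. Probe sets with 1 gene symbol that are not controls (41091 of 54675) were used as deposited. Genes were represented by their brightest probe set, tested with limma 3.58.1 in R 4.3.3 on group means over all 9 arrays (lmFit and eBayes, two-sided), and adjusted by Benjamini-Hochberg over 19775 genes for each of 3 comparisons; other probe sets were adjusted over all 41091. For a single value, exact permutation of 3 against 3 arrays reaches 0.10 at best. The fit was tested on simulated data. Tried in turn were a block for replicate number, fits of the compared groups alone, a trended robust prior and a filter at the median signal. Further settings were averaged probe sets, exclusion of shared probes, quantile normalization, median centring and the omission of each array. Exclusion of shared probes dropped probe sets by the ending of their names, _s_at or _x_at, although all used here have 1 gene symbol. Same-numbered arrays did not deviate together (0 of 9 pairs above 0.1, r = -0.20 to 0.086). All 35 members are named, and genes of other lists where they passed, at most 6 per list by adjusted p; ALB, F13A1, HP and STAT3 were added after their values were seen. The members and lists were chosen with earlier results of these data known. Promoters came from RefSeq (GRCh38.p14) and were searched for fixed letters.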

Additional observations from a re-analysis of the deposited data

Results flagged for a closer look

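The changes at 24 h and at 6 h against the same vehicle arrays differed for 13 members, by the limma test of 24 h against 6 h. The log2 difference, 24 h minus 6 h, was -1.05 for F13B, -0.54 for FGB, -0.50 for CPB2, -0.47 for F5, -0.43 for F3, -0.31 for FGG, -0.29 for FGA, -0.29 for PLAUR, -0.24 for A2M and -0.22 for F11. It was 0.28 for F7, 0.26 for SERPINF2 and 0.22 for SERPINC1. Without any 1 of the 9 arrays, 9 of the 13 still passed: FGA, FGB, FGG, F3, F5, F13B, PLAUR, SERPINF2 and CPB2.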

How the results depend on the processing

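The 10 members called at 24 h became 8 to 10 with 1 array left out, and 8 passed in all 9 such fits (FGA, FGB, FGG, F5, F7, F13B, A2M and CPB2). Without shared probes, that is without probe sets whose names end in _s_at or _x_at, 5 of the 27 members left passed. FGG and CPB2 have only a probe set with such an ending, although it is assigned to that gene alone. Their calls could therefore not be tried in that setting in any comparison. The 13 called at 24 h against 6 h became 9 to 14 with 1 array left out and 7 without shared probes. The 5 called at 6 h became 0 to 5 with 1 array left out, and 1 with the replicate number as a block, 2 with only the compared groups, 3 with averaged probe sets, 1 without shared probes, 4 with quantile normalization, 5 with median centring, 7 with the trended robust prior and 7 of 23 above the median signal. The replicate block gave 9 members at 24 h and 11 at 24 h against 6 h, and 1 of 9 arrays correlated best with its own number. Without shared probes, values of called members turned sign for FGA at 6 h (0.11), F7 at 24 h (-0.044) and against 6 h (-0.082), F11 against 6 h (0.0079) and PLAUR against 6 h (0.033), none of them past the threshold; the probe set is then another, and dimmer, one. Over all genes, the 701 calls at 6 h became 427 with the replicate block, 454 with only the compared groups, 1104 with the trended robust prior, 1206 above the median signal, 454 without shared probes and 261 to 637 with 1 array left out. The 1616 calls at 24 h became 921 with only the compared groups and 1005 to 1664 with 1 array left out, and the 2729 calls at 24 h against 6 h became 1774 without shared probes and 1519 to 3082 with 1 array left out. Of the 701 calls at 6 h, 324 rose and 377 fell; median centring gave 255 and 490, and quantile normalization 419 and 328, which turns the majority. Of the 2729 calls at 24 h against 6 h, 1826 rose and 903 fell; quantile normalization gave 1457 and 1207. The 3 arrays per group and the compression of dim signals limit what could be detected for the 11 members below the median gene.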
